A study of Homo sapiens with 18 samples.

Results

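The genes described here encode the extracellular matrix, its integrin receptors and the proteases that cut it. They were chosen by symbol: protein-coding genes named COL, LAMA, LAMB, LAMC, ITGA, ITGB, MMP, ADAMTS or TIMP with their chain number or letter, without the ITGB1BP genes, together with BGN, VCAN, FN1, SPARC, DCN and FBN1. Of the 15258 genes with values, 78 met this rule, and 65 of them reached the mean of at least 1 TPM (a length-normalised transcript level) over 9 libraries that was required for testing. ITGB3BP, a centromere protein gene, and MMP24OS, a gene on the strand opposite MMP24, met the rule by name only. They are counted among the 78 and the 65, and neither passed a test.

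The matrix is a meshwork of collagens, laminins, glycoproteins and proteoglycans that cells secrete and hold on to. Integrins are receptors made of 1 alpha and 1 beta chain, which bind matrix outside the cell and couple it to the actin cytoskeleton. Matrix metalloproteinases and ADAMTS proteases cut or process matrix proteins, and TIMPs inhibit them. In melanoma these genes are studied for their part in adhesion and invasion.

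Input mRNA was sequenced from MEL624, an established human melanoma line, in KO1 and KO2, which are 2 clonal lines with PCIF1 knocked out, and in 1 control line, which is wild type at PCIF1 and received a random sgRNA. All 3 lines were grown in the same standard medium, and each had 3 libraries, A to C, which the series calls biological replicates. PCIF1 methylates a cap-adjacent adenosine of mRNA to give m6Am. Each knockout is a single clone and the control is a single line, and p-values therefore cover library-to-library spread only, without the spread among separate edits.

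Reads counted on genes ranged from 7848089 to 11393206 per library. PCIF1 itself averaged 24.0 ± 1.77 TPM in KO1, 60.3 ± 3.86 TPM in KO2 and 57.6 ± 3.84 TPM in the control (SD, n = 3 each), and it fell by 1.26 on the log2 scale in KO1 (limma adjusted p = 1.65e-06), whereas the KO2 difference was 0.07 (limma adjusted p = 0.542). Total mRNA need not report a small edit, so the KO2 label was not checked by this level. Of 10 melanocyte markers only MITF and ERBB3 were among the genes analysed, with MITF at 24.3 to 29.1 TPM in KO1, 47.5 to 52.0 TPM in KO2 and 36.0 to 38.3 TPM in the control. ERBB3 was at 0.63 to 0.952 TPM in KO1, 0.789 to 1.12 TPM in KO2 and 3.33 to 3.79 TPM in the control, so both markers were below the control in KO1, while in KO2 MITF was above it and ERBB3 below it. With 2 markers the melanocyte identity of the line was hardly testable. Of 7 fibroblast markers 5 were present, with a summed level of 13.7 to 15.0 TPM in KO1, 11.2 to 11.5 TPM in KO2 and 14.6 to 15.4 TPM in the control. They did not move together. POSTN had 0 reads in both clones and 94 in the control, LUM had 57 reads in KO1, 26 in KO2 and 1 in the control, and FAP had 65 reads in KO1, 16 in KO2 and 0 in the control. PDGFRB, the most abundant of them, was at 10.0 TPM in KO1, 9.03 to 10.1 TPM in KO2 and 11.9 to 12.4 TPM in the control, and COL1A1 is described with the collagens. Of 7 endothelial markers only ESAM was among the genes analysed, at 2.82 to 3.73 TPM in KO1, 2.99 to 4.37 TPM in KO2 and 1.03 to 2.13 TPM in the control. Of 5 keratinocyte markers only KRT10 was, at 34.0 to 36.8 TPM in KO1, 33.7 to 39.6 TPM in KO2 and 35.5 to 39.2 TPM in the control. Of 5 leukocyte markers 0 were among the genes analysed. The part of these differences in the results below was not tested, and in bulk RNA fewer expressing cells and less RNA per cell cannot be told apart.

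PCIF1 acts on mRNAs whose first base is adenosine, so the annotated first base of members that the results turn on is shown here. The first transcribed base was not measured in these cells. Each line holds 25 bases before and 20 bases after the RefSeq start of the gene (GRCh38.p14), 5′ to 3′ on the gene's strand, with the start base in capitals.
BGN, chrX:153494955-153495000, plus strand: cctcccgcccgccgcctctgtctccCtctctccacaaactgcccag
VCAN, chr5:83471719-83471764, plus strand: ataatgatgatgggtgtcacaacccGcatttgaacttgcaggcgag
FN1, chr2:215436048-215436093, minus strand: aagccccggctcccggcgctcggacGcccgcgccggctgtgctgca
COL6A2, chr21:46098087-46098132, plus strand: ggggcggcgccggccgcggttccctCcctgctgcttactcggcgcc
COL6A3, chr2:237414144-237414189, minus strand: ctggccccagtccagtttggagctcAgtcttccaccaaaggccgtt
COL16A1, chr1:31703997-31704042, minus strand: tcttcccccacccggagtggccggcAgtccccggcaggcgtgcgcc
LAMB3, chr1:209652405-209652450, minus strand: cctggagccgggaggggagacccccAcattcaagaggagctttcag
ITGB1, chr10:32958210-32958255, minus strand: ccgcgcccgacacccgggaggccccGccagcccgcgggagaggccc
ITGA5, chr12:54419246-54419291, minus strand: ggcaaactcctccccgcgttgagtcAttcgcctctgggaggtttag
MMP14, chr14:22836560-22836605, plus strand: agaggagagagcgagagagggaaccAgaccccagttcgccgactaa
TIMP3, chr22:32801680-32801725, plus strand: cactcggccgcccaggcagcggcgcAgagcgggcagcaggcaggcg
ADAMTS6, chr5:65481900-65481945, minus strand: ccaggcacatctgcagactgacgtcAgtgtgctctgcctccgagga
By RefSeq start, both kinds of start were found among genes that rose and genes that fell. BGN, with the largest rise among the tested members, and COL6A2, lower in both clones, start with C. ADAMTS6, higher in both clones, and LAMB3, lower in KO2, start with A. At the most upstream GENCODE start the base is A for ITGB1, G for COL6A3 and C for COL16A1. A relation of the start base to the changes was not tested.

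Over the 47 tested members with a RefSeq promoter entry, 26 started with A, 8 with C, 13 with G and 0 with T, against 45.4% A over all 10317 tested genes with an entry. The 26 members that start with A had a median log2 fold change of -0.15 in KO1 and -0.34 in KO2, with 3 higher and 11 lower in KO1 and 1 higher and 14 lower in KO2. The 21 members that do not start with A had medians of -0.09 in KO1 and -0.19 in KO2, with 4 higher and 7 lower in KO1 and 3 higher and 10 lower in KO2. Over all tested genes the medians lay between 0.00 and 0.04 for both kinds of start. Of 4684 genes that start with A, 1012 were higher and 676 lower in KO1, and 777 higher and 755 lower in KO2. Of 5633 genes that do not, 1169 were higher and 834 lower in KO1, and 881 higher and 826 lower in KO2. With the most upstream GENCODE start, 20 members started with A, with medians of -0.155 in KO1 and -0.401 in KO2. The 27 others had medians of -0.074 in KO1 and -0.187 in KO2. By these medians members of both kinds leaned to lower levels, but by RefSeq start the 8 that start with C did not. Their medians were 0.257 in KO1 and 0.078 in KO2, with 2 higher and 2 lower in each clone. The 13 that start with G had medians of -0.174 in KO1 and -0.368 in KO2. No test of the difference between the kinds of start was made. The 18 tested members without an entry included COL6A1, COL8A1, COL5A2, ADAMTS4, ITGA3, MMP1, MMP2 and MMP3.

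More members were lower than higher in both clones. In KO1, 11 of the 65 tested members were higher and 24 lower than in the control (limma, adjusted p under 0.05), while over all 14512 tested genes 20.2% were higher and 14.1% lower. In KO2, 7 were higher and 37 lower, while over all tested genes 15.6% were higher and 14.8% lower. The median log2 fold change of the tested members was -0.11 in KO1 and -0.33 in KO2, and 0.04 and 0.01 over all tested genes. The comparisons of KO1 and KO2 share the control libraries, so the clones' values are set side by side and are not independent of each other. The requirement of 1 TPM bears on some of these calls: 10 tested members had at least 1 line with a mean under 1 TPM and reached the overall mean through the lines in which they are high. They were ADAMTS4, ADAMTS13, ADAMTS17, COL6A2, COL11A2, FN1, ITGA7, ITGB7, MMP1 and MMP19, and the calls among them are not independent of that requirement. For the mean of both clones 9 members were higher and 34 lower, while over all tested genes 19.3% were higher and 15.0% lower, 34.4% in all.

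BGN, COL8A1, ADAMTS4 and ADAMTS6 were higher in both clones, as were 8.47% of all tested genes. In both clones 20 members were lower, as were 7.26% of all tested genes, and they comprised 8 integrin chains, 7 collagen chains, LAMC1, MMP3, MMP15, SPARC and VCAN. Between the clones themselves, 5 members were higher and 28 lower in KO2 than in KO1, with 28.7% of all tested genes called, 11.8% higher and 16.9% lower. The members' summed level was 2910 ± 124 TPM in KO2, 3420 ± 27.5 TPM in KO1 and 3510 ± 44.6 TPM in the control (SD, n = 3 each).

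**Figure D1:**
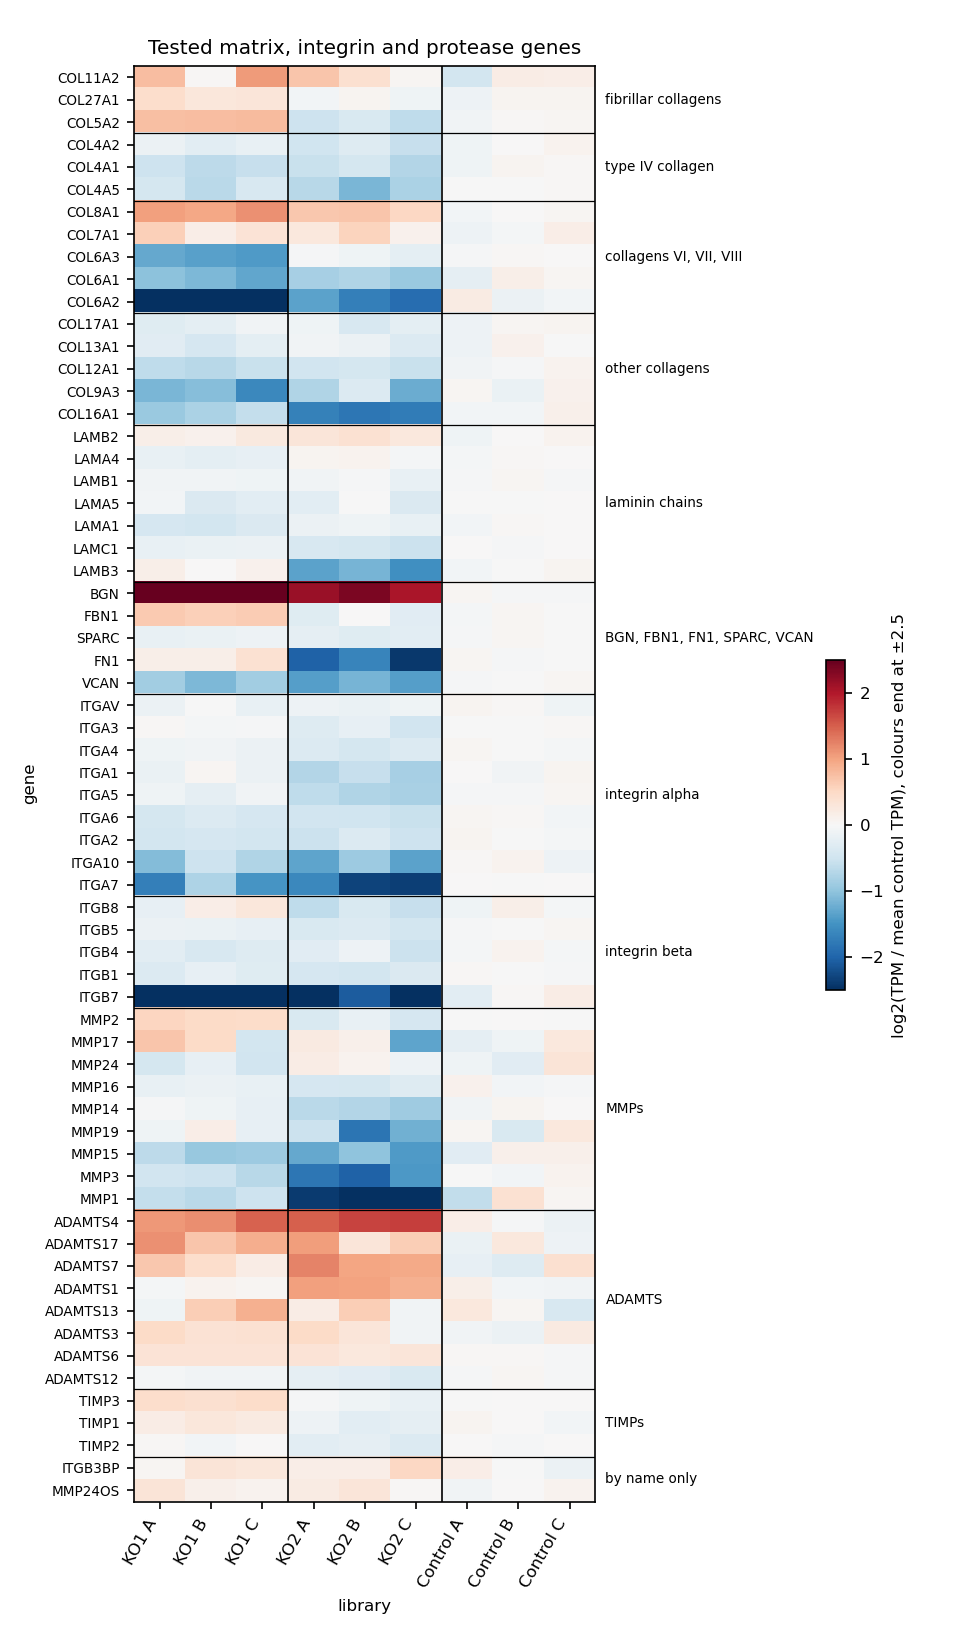
Heat map of the tested genes that are reported here (rows, by role) in the 9 libraries (columns, KO1, KO2, then control). Colour is log2 of TPM over the mean control TPM, with red above and blue below the control. BGN is red in all 6 knockout libraries, and the rows of the integrin chains are mostly blue in KO2.

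Among the secreted glycoproteins and proteoglycans, the small proteoglycan BGN and the large proteoglycan VCAN went in opposite directions. BGN (biglycan, ENSG00000182492, chrX:153494980-153509546, plus strand) binds collagen fibrils and growth factors. It was at 95.1, 89.4 and 97.0 TPM in KO1, 64.9, 75.0 and 60.4 TPM in KO2 and 15.2, 14.3 and 14.4 TPM in the control. It rose by 2.68 ± 0.08 in KO1 (limma adjusted p = 1.73e-08) and by 2.18 ± 0.08 in KO2 (limma adjusted p = 6.41e-08) on the log2 scale (± SE, 3 libraries per line, as for all fold changes below). All 6 knockout libraries stood above the control libraries, and KO2 stood below KO1.

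VCAN (versican, ENSG00000038427, chr5:83471618-83582303, plus strand), which binds hyaluronan, was at 5.64, 4.75 and 5.66 TPM in KO1, 3.96, 4.63 and 3.94 TPM in KO2 and 10.1, 10.2 and 10.6 TPM in the control. All knockout libraries were below all control libraries, and the fold changes were -0.95 ± 0.12 in KO1 (limma adjusted p = 0.000212) and -1.31 ± 0.12 in KO2 (limma adjusted p = 2.26e-05). FN1 (fibronectin, ENSG00000115414, chr2:215360440-215436073, minus strand), the main ligand of the integrin formed by ITGA5 and ITGB1, was at 4.2, 4.24 and 4.96 TPM in KO1, 0.943, 1.21 and 0.716 TPM in KO2 and 3.93, 3.71 and 3.79 TPM in the control. It fell by 2.03 in KO2 (SE 0.2, limma adjusted p = 4.74e-05), whereas the KO1 difference was 0.23 (SE 0.2, limma adjusted p = 0.417). KO2 was below both other lines, and its difference from KO1 was -2.25 (limma adjusted p = 4.19e-05).

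SPARC, a collagen-binding glycoprotein and the member with the highest control level, averaged 345 ± 6.96 TPM in KO1, 319 ± 7.14 TPM in KO2 and 384 ± 10.6 TPM in the control. It fell by 0.16 in KO1 (limma adjusted p = 0.00566) and by 0.27 in KO2 (limma adjusted p = 0.000248). FBN1, the fibrillin of microfibrils, averaged 16.3 ± 0.26 TPM in KO1, 9.34 ± 1.12 TPM in KO2 and 10.6 ± 0.3 TPM in the control. It rose by 0.63 in KO1 (limma adjusted p = 0.000668) and differed by -0.19 in KO2 (limma adjusted p = 0.154). All 5 of these matrix genes were lower in KO2 than in KO1, as were 16.9% of all tested genes. For SPARC and VCAN this call was lost without single libraries (limma adjusted p up to 0.126 for SPARC and 0.13 for VCAN). It was also lost with the running median of the neighbouring genes subtracted (limma adjusted p = 0.664 for SPARC and 0.0718 for VCAN).

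Of 16 tested collagen chains, 3 were higher and 9 lower in KO1, and 1 was higher and 9 lower in KO2. Over all tested genes, 20.2% were higher and 14.1% lower in KO1, and 15.6% higher and 14.8% lower in KO2. COL6A1, COL6A2 and COL6A3 are the 3 chains of collagen VI, a beaded-filament collagen around cells. COL6A3 (ENSG00000163359, chr2:237324003-237414328, minus strand) was at 13.6, 13.0 and 12.4 TPM in KO1, 32.5, 30.9 and 27.9 TPM in KO2 and 32.5, 33.6 and 33.2 TPM in the control. It fell by 1.35 in KO1 (limma adjusted p = 6.78e-07), and the KO2 difference was -0.12 (limma adjusted p = 0.213), so KO1 stood alone below the other lines. The running median of the genes neighbouring COL6A3 differed from the control by a log2 value of 0.53 in KO1 and 0.43 in KO2. With it subtracted the KO1 difference was -1.88 (limma adjusted p = 7.04e-08) and the KO2 difference was -0.56 (limma adjusted p = 0.0003).

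COL6A2 (ENSG00000142173, chr21:46098112-46132848, plus strand) had 3, 2 and 1 reads in the KO1 libraries, 12, 8 and 9 reads in the KO2 libraries and 45, 26 and 30 reads in the control libraries. The read rate of KO1 was 0.0593 of the control's (exact 95% interval 0.0213 to 0.134, counting error only). Its level was 0.159 TPM in KO1, 0.733 TPM in KO2 and 2.26 TPM in the control, so it reached the 1 TPM mean only through the control, in which it is high. On the log2 TPM scale it fell by 3.93 in KO1 (limma adjusted p = 6.16e-05) and by 1.64 in KO2 (limma adjusted p = 0.0102), and KO2 was higher than KO1 by 2.30 (limma adjusted p = 0.002). COL6A1 was at 3.88 ± 0.36 TPM in KO1, 4.81 ± 0.31 TPM in KO2 and 8.59 ± 1.07 TPM in the control, and fell in both clones, by 1.14 in KO1 (limma adjusted p = 0.000152) and 0.83 in KO2 (limma adjusted p = 0.000989). KO1 was thus lower for all 3 chains. KO2 was lower for 2 of them, and for COL6A3 only with its neighbours' running median subtracted.

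**Figure D2:**
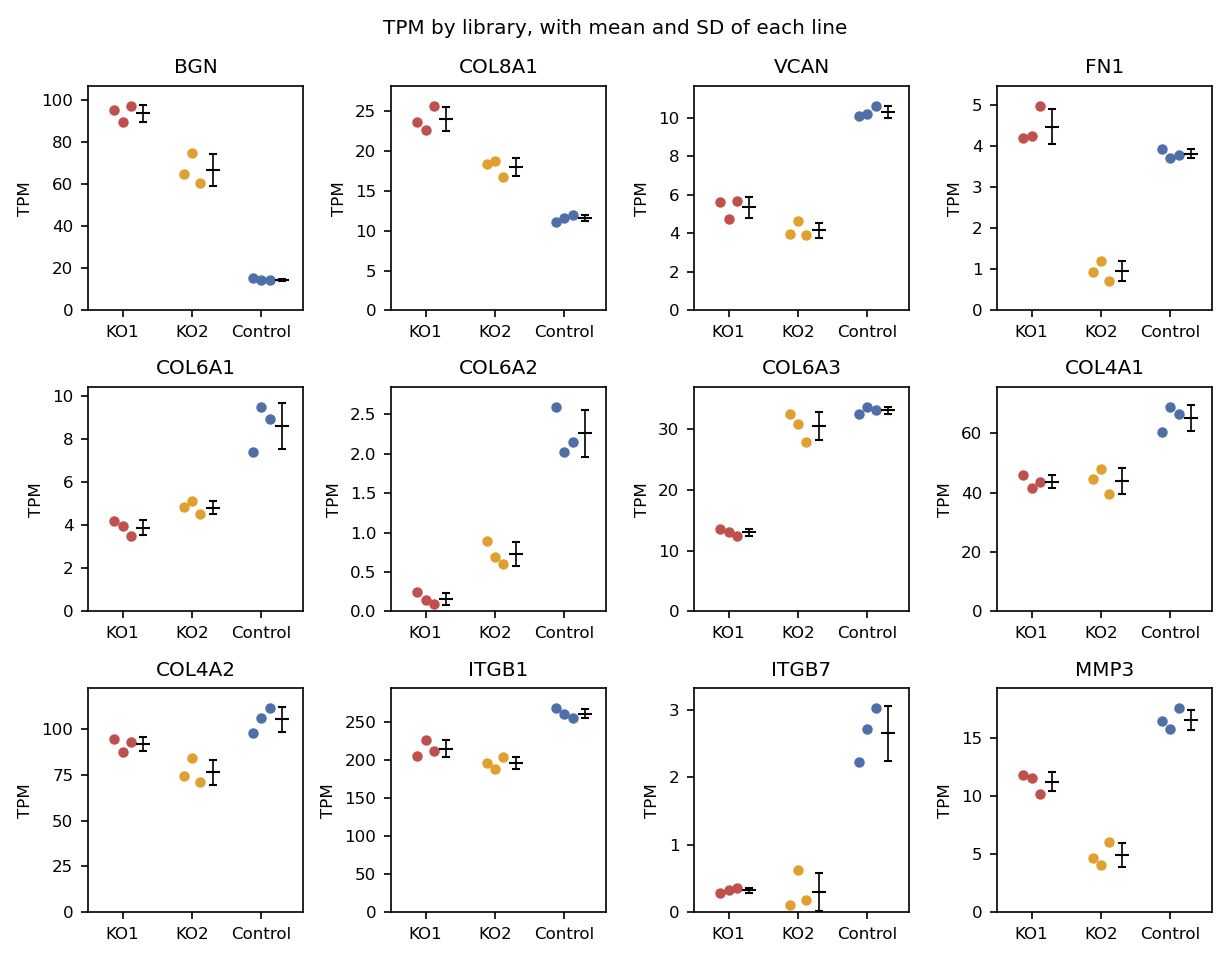
TPM of 12 members in each library (points, KO1 left, KO2 centre, control right), with the mean and SD of each line (bars). COL6A3 is low only in KO1 and FN1 only in KO2, while BGN is high and VCAN low in both clones.

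COL4A1 and COL4A2, the chains of the common type IV collagen network of basement membranes, lie head to head on chromosome 13. Their RefSeq starts are separated by 126 bases, shown here on the plus strand (GRCh38.p14) with a CCAAT and a GGGCGG match in capitals.
COL4A1-COL4A2 interval, chr13:110307158-110307283: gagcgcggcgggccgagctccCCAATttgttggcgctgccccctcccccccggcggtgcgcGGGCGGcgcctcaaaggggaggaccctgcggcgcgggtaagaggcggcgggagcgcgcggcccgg
The motifs searched were CCAAT, its reverse complement being ATTGG, then GGGCGG, its reverse complement being CCGCCC, and TATAAA, its reverse complement being TTTATA. In windows of 126 bases before the start of 35116 promoters, 21.1% held CCAAT, 34.6% GGGCGG and 5.87% TATAAA, and TATAAA is not in this window. No 2 of these matches overlap.

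COL4A1 was at 45.9, 41.5 and 43.8 TPM in KO1, 44.5, 47.9 and 39.5 TPM in KO2 and 60.5, 68.8 and 66.5 TPM in the control. It fell by 0.58 in KO1 (limma adjusted p = 0.000402) and by 0.57 in KO2 (limma adjusted p = 0.000382). COL4A2 was at 94.6, 87.1 and 92.7 TPM in KO1, 74.1, 83.9 and 70.7 TPM in KO2 and 97.7, 106 and 111 TPM in the control. It fell by 0.46 in KO2 (limma adjusted p = 0.000735), and the KO1 difference of -0.20 did not pass (limma adjusted p = 0.052). All KO1 libraries lay below all control libraries for COL4A2. With the neighbours' running median subtracted COL4A2 passed in KO1, at -0.25 (limma adjusted p = 0.0279). The ratio of COL4A1 to COL4A2 was 0.478 ± 0.007 in KO1, 0.576 ± 0.022 in KO2 and 0.622 ± 0.023 in the control. Both genes were lower than the control in each clone's mean, and the ratio was lowest in KO1.

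The fibril-forming chain COL5A2 was called in opposite directions in the clones. It was at 66.3, 66.9 and 67.8 TPM in KO1, 27.5, 30.1 and 25.2 TPM in KO2 and 36.7, 40.2 and 40.6 TPM in the control, and the 3 lines did not overlap. It rose by 0.78 in KO1 (limma adjusted p = 2.97e-05) and fell by 0.51 in KO2 (limma adjusted p = 0.000382). COL8A1, a short-chain collagen, rose by 1.05 in KO1 (limma adjusted p = 6.94e-06) and by 0.64 in KO2 (limma adjusted p = 0.000166), to 24.0 ± 1.5 TPM in KO1 and 18.0 ± 1.13 TPM in KO2, against 11.6 ± 0.41 TPM in the control. COL16A1, which associates with fibrils, fell by 0.77 in KO1 (limma adjusted p = 0.00509) and by 1.75 in KO2 (limma adjusted p = 3.03e-05), and COL9A3 by 1.27 in KO1 (limma adjusted p = 0.00356) and 0.78 in KO2 (limma adjusted p = 0.0392). The KO2 call of COL9A3 was lost without any 1 of the 3 control libraries, KO2 A or KO2 C (limma adjusted p up to 0.119). COL1A1, the main chain of type I collagen, was not tested, with 0.72 ± 0.24 TPM in KO1, 0.401 ± 0.096 TPM in KO2 and 0.805 ± 0.088 TPM in the control.

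The laminin chains form the cross-shaped glycoproteins of basement membranes. Of 8 tested, 3 were lower in KO1, and 1 was higher and 3 lower in KO2, while over all tested genes 34.3% were called in KO1 and 30.4% in KO2. LAMB1, the most abundant, averaged 307 ± 2.42 TPM in KO1, 306 ± 17.0 TPM in KO2 and 327 ± 11.7 TPM in the control, with differences of -0.09 (95% interval -0.19 to 0.01) in KO1 and -0.10 in KO2 that did not pass (limma adjusted p = 0.133 and 0.121). LAMC1, the partner chain of most laminins, was at 129, 131 and 132 TPM in KO1, 111, 109 and 101 TPM in KO2 and 147, 145 and 149 TPM in the control, and fell by 0.17 in KO1 (limma adjusted p = 0.00909) and by 0.46 in KO2 (limma adjusted p = 2.32e-05).

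The laminin chain LAMB3, singled out after its values were seen, was at 76.6, 70.5 and 75.4 TPM in KO1, 27.6, 30.9 and 24.1 TPM in KO2 and 66.5, 69.3 and 73.2 TPM in the control. It fell by 1.34 in KO2 (limma adjusted p = 2.27e-06) and differed by 0.09 in KO1 (limma adjusted p = 0.432), so only the KO2 libraries stood apart. The values of LAMA1 and LAMB2 depended on those of their chromosomal neighbours. LAMA1 was at -0.41 in KO1 (limma adjusted p = 0.000451) and 0.09 with the neighbours' running median subtracted (limma adjusted p = 0.359). In KO2 LAMA1 was at -0.15 (limma adjusted p = 0.077) and, with the neighbours subtracted, at 0.40 and past the threshold on the higher side (limma adjusted p = 0.00173). LAMB2 was at 0.32 in KO2 (limma adjusted p = 0.00322) and -0.04 with it subtracted (limma adjusted p = 0.54).

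Of 14 tested integrin chains, 8 were lower in KO1 and 12 in KO2, and none of the 14 was higher in either clone, while 14.1% of all tested genes were lower in KO1 and 14.8% in KO2. ITGB2, which was not tested, had more reads in both clones than in the control and is described with the low chains. The summed level of the 10 alpha chains was 624 ± 6.33 TPM in KO1, 515 ± 30.4 TPM in KO2 and 688 ± 2.42 TPM in the control, and that of the 7 beta chains was 392 ± 7.35 TPM in KO1, 358 ± 5.24 TPM in KO2 and 469 ± 3.53 TPM in the control. For both sums, all knockout libraries lay below all control libraries.

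ITGB1, the beta chain shared by most matrix-binding integrins (ENSG00000150093, chr10:32887273-33005792, minus strand), was at 205, 226 and 212 TPM in KO1, 196, 189 and 204 TPM in KO2 and 268, 260.0 and 255 TPM in the control. It fell by 0.28 ± 0.05 in KO1 (limma adjusted p = 0.00105) and by 0.41 ± 0.05 in KO2 (limma adjusted p = 9.24e-05). ITGA6, a laminin-binding alpha chain, fell by 0.40 in KO1 (limma adjusted p = 0.000103) and by 0.51 in KO2 (limma adjusted p = 1.51e-05). Its levels were 107, 115 and 109 TPM in KO1, 104, 103 and 99.0 TPM in KO2 and 149, 148 and 139 TPM in the control, without overlap between the control and either clone.

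ITGA3, the most abundant alpha chain and a laminin receptor, was at 357 ± 9.06 TPM in KO1, 288 ± 26.4 TPM in KO2 and 362 ± 5.65 TPM in the control, and fell by 0.33 in KO2 (limma adjusted p = 0.00177), with a KO1 difference of -0.02 (limma adjusted p = 0.822) and a difference between KO2 and KO1 of -0.31 (limma adjusted p = 0.00315). ITGA5, the alpha chain of the fibronectin receptor, singled out after its values were seen, was at 78.2, 72.8 and 79.5 TPM in KO1, 54.8, 50.6 and 48.3 TPM in KO2 and 83.1, 83.5 and 87.7 TPM in the control. It fell by 0.73 in KO2 (limma adjusted p = 1e-05), the clone in which its ligand FN1 fell. The KO1 difference of ITGA5, -0.14, did not pass (limma adjusted p = 0.0771), although all KO1 libraries lay below all control libraries. ITGB5, a vitronectin-receptor beta chain, fell by 0.17 in KO1 (limma adjusted p = 0.0107) and by 0.39 in KO2 (limma adjusted p = 6.94e-05). ITGAV, its alpha partner, did not pass in either clone, at -0.12 (95% interval -0.27 to 0.04) in KO1 and -0.13 (95% interval -0.28 to 0.03) in KO2. With the neighbours' running median subtracted it passed in both, at -0.21 in KO1 (limma adjusted p = 0.0157) and -0.17 in KO2 (limma adjusted p = 0.0461).

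Some chains were of low level. ITGA7, a laminin receptor of muscle, had 62 reads over the KO1 libraries, 33 over the KO2 libraries and 152 over the control libraries, and fell by 1.32 in KO1 (limma adjusted p = 0.00707) and by 2.09 in KO2 (limma adjusted p = 0.00049). ITGB7, a beta chain known from lymphocytes, had 11 reads in KO1, 9 in KO2 and 96 in the control, and fell by 3.01 in KO1 (limma adjusted p = 0.00257) and by 3.51 in KO2 (limma adjusted p = 0.00103). ITGB7 reached the 1 TPM mean only through the control, with means of 0.329 TPM in KO1, 0.306 TPM in KO2 and 2.65 TPM in the control, and so had to differ to be tested. Its values are uncertain, since 42.3% of its exon bases are overlapped by ZNF740 on the opposite strand and whether counting used strand was not stated in the labels. ITGB2, the leukocyte beta chain, was too low to be tested, with 12, 8 and 9 reads in KO1, 21, 22 and 22 reads in KO2 and 1, 0 and 2 reads in the control. Its read rate was 9.65 times the control's in KO1 (exact 95% interval 2.99 to 49.5) and 23.3 times in KO2 (7.64 to 116). ITGB2, and also ITGAV, ITGA11, LAMA1 and LAMB2, were named after their values were seen.

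**Figure D3:**
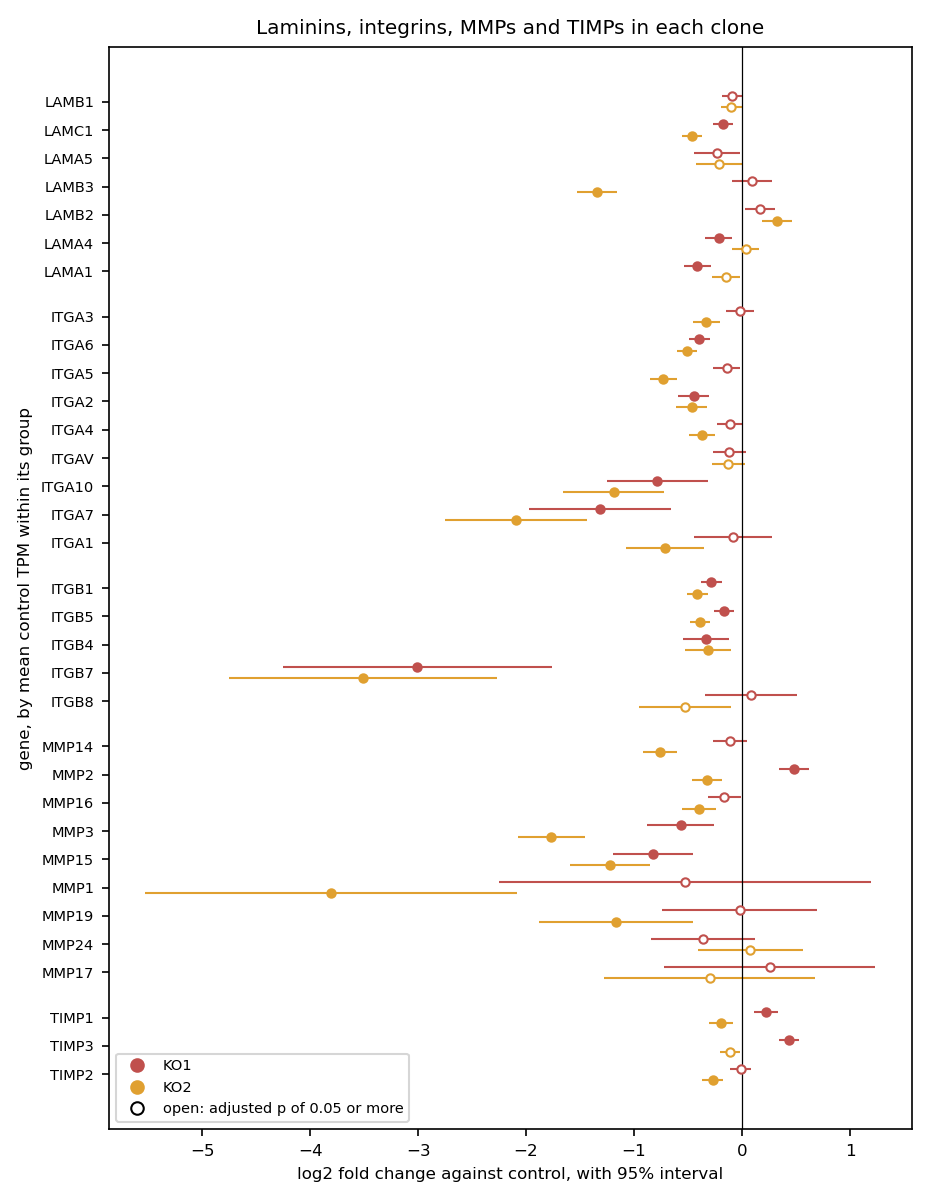
Log2 fold change against the control (points, with 95% intervals) of the laminin, integrin, MMP and TIMP genes that were tested and are reported here, in KO1 and KO2. Filled points passed the test. The integrin points lie below 0 in both clones for most chains, ITGB7 and MMP1 have the widest intervals, and MMP2, TIMP1 and TIMP3 lie above 0 in KO1 alone.

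Of 9 tested matrix metalloproteinases, 7 were lower in KO2 than in the control, as were 14.8% of all tested genes, and 6 were lower in KO2 than in KO1, as were 16.9% of all tested genes. In KO1, 1 was higher and 2 were lower than in the control, while over all tested genes 20.2% were higher and 14.1% lower. MMP17 and MMP24 passed in none of these comparisons, and MMP24 was at 0.08 in KO2 against the control (limma adjusted p = 0.82). MMP1, the interstitial collagenase, and MMP3, stromelysin, lie in the MMP cluster of chromosome 11. MMP3 (chr11:102835801-102843609, minus strand) was at 11.8, 11.5 and 10.2 TPM in KO1, 4.69, 4.04 and 6.06 TPM in KO2 and 16.4, 15.7 and 17.5 TPM in the control. It fell by 0.57 in KO1 (limma adjusted p = 0.0107) and by 1.77 in KO2 (limma adjusted p = 1.11e-05), and the 3 lines did not overlap. MMP1 had 11, 12 and 12 reads in KO1, 3, 0 and 2 reads in KO2 and 14, 21 and 18 reads in the control. Its KO2 read rate was 0.102 of the control's (exact 95% interval 0.0317 to 0.252), and its KO1 difference of -0.53 did not pass (limma adjusted p = 0.634).

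MMP2, gelatinase A, was called in opposite directions in the clones, and its activator MMP14, a membrane-type protease, was lower in KO2. MMP2 was at 72.7, 69.9 and 68.9 TPM in KO1, 38.7, 44.6 and 37.6 TPM in KO2 and 50.0, 50.9 and 50.3 TPM in the control, so KO1 stood above and KO2 below the control. It rose by 0.48 in KO1 (limma adjusted p = 0.000331) and fell by 0.33 in KO2 (limma adjusted p = 0.00319). MMP14, singled out after its values were seen, fell by 0.76 in KO2 (limma adjusted p = 3.03e-05), to 38.2, 36.9 and 33.1 TPM against 57.7, 64.1 and 61.4 TPM in the control, and differed by -0.11 in KO1 (limma adjusted p = 0.253). MMP15, another membrane-type protease, fell by 0.83 in KO1 (limma adjusted p = 0.00409) and by 1.22 in KO2 (limma adjusted p = 0.000393).

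The 3 tested TIMPs were all lower in KO2 than in KO1, as were 16.9% of all tested genes. TIMP3, the matrix-bound inhibitor, was at 211, 206 and 215 TPM in KO1, 152, 145 and 137 TPM in KO2 and 155, 156 and 156 TPM in the control. It rose by 0.44 in KO1 (limma adjusted p = 4.63e-05), and the KO2 difference of -0.11 did not pass (limma adjusted p = 0.0753). TIMP1 rose by 0.23 in KO1 (limma adjusted p = 0.00658) and fell by 0.20 in KO2 (limma adjusted p = 0.0131). With the neighbours' running median subtracted, neither call of TIMP1 passed (limma adjusted p = 0.0996 in KO1 and 0.0583 in KO2). The ratio of MMP2 to its inhibitor TIMP2 was 0.864 ± 0.025 in KO1, 0.591 ± 0.038 in KO2 and 0.614 ± 0.017 in the control, and the KO1 libraries did not overlap the others.

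Of 8 tested ADAMTS proteases, 3 were higher and 0 lower in KO1, and 4 were higher and 1 lower in KO2. Over all tested genes the shares were 20.2% higher and 14.1% lower in KO1, and 15.6% higher and 14.8% lower in KO2. The filter shaped the ADAMTS counts. ADAMTS4 and ADAMTS17 were under 1 TPM in the control and passed through the clones in which they are high. ADAMTS15 was not tested, with 34 reads in KO1, 10 in KO2 and 83 in the control, nor was ADAMTS16, with 64 reads in KO1, 15 in KO2 and 57 in the control. ADAMTS4, an aggrecanase that also cuts versican, was at 0.976, 1.04 and 1.28 TPM in KO1, 1.31, 1.5 and 1.54 TPM in KO2 and 0.516, 0.453 and 0.418 TPM in the control. It rose by 1.25 in KO1 (limma adjusted p = 0.00343) and by 1.65 in KO2 (limma adjusted p = 0.000635), and its mean of 1.0 TPM was just inside the filter. ADAMTS6 rose by 0.34 in KO1 (limma adjusted p = 0.000385) and by 0.31 in KO2 (limma adjusted p = 0.000667), to 39.5 ± 0.02 TPM in KO1 and 38.6 ± 0.87 TPM in KO2, against 31.2 ± 0.75 TPM in the control. ADAMTS1, which also cuts versican, was at 12.7, 14.1 and 13.7 TPM in KO1, 26.7, 26.4 and 24.3 TPM in KO2 and 14.6, 12.6 and 12.5 TPM in the control. It rose by 0.96 in KO2 (limma adjusted p = 1.87e-05), and only the KO2 libraries stood above the others.

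**Figure D4:**
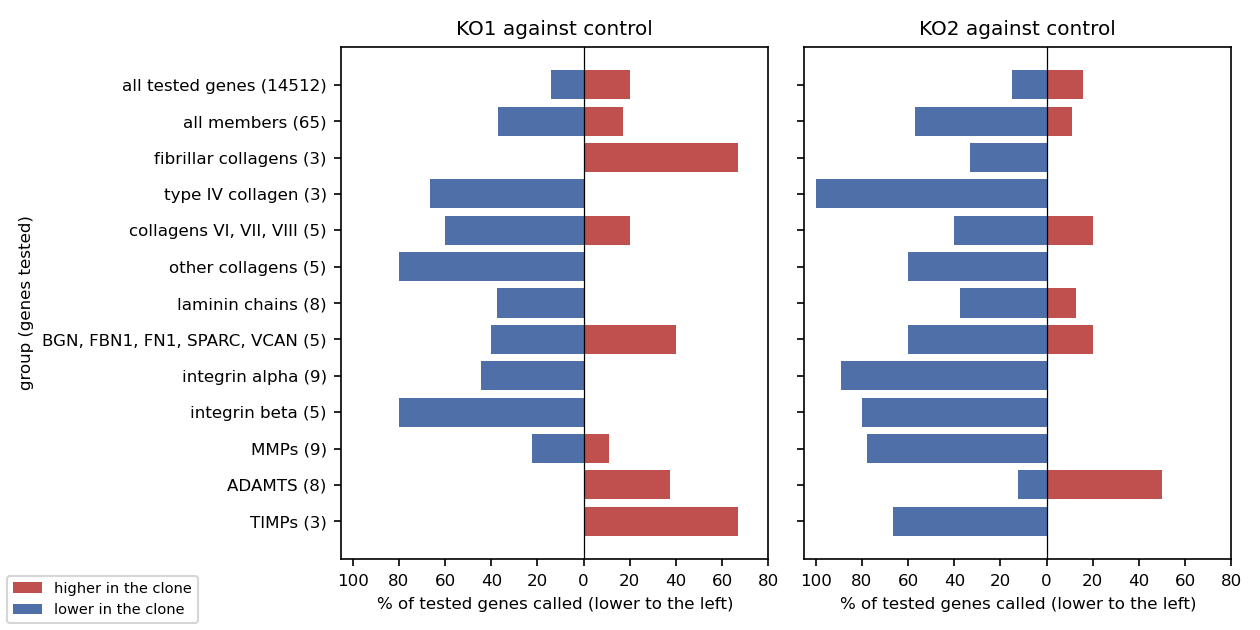
Share of tested genes called higher (right, red) or lower (left, blue) in KO1 and KO2 against the control, by role, with all tested genes on top and the number tested in brackets. Integrin bars lie only on the lower side in both clones, and the MMP bar on the lower side is longer in KO2.

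The genes just inside the filter were ADAMTS4 (mean 1.0 TPM), COL11A2 (1.01 TPM) and COL6A2 (1.05 TPM), and those just outside were ADAMTS16 (0.983 TPM) and ADAMTS15 (0.937 TPM). The 13 members that were not tested had means under 1 TPM. ITGA11, a collagen-binding chain among them, had 11 reads in KO1, 11 in KO2 and 65 in the control.

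Other matrix genes, listed with earlier results of these data known, are given by their counts, beside 20.2% higher and 14.1% lower in KO1 and 15.6% higher and 14.8% lower in KO2 over all tested genes. Of 27 collagen-processing genes, 3 were higher and 7 lower in KO1, and 4 higher and 14 lower in KO2. TLL1, a procollagen C-proteinase of the tolloid family, had 4 reads in KO1, 2 in KO2 and 267 in the control. Its read rate was 0.015 of the control's in KO1 (exact 95% interval 0.00405 to 0.0387) and 0.00807 of it in KO2 (0.000972 to 0.0294), and it reached the 1 TPM mean only through the control. PCOLCE, which enhances such proteinases, rose by 0.79 in KO1 (limma adjusted p = 5.53e-06) and by 0.65 in KO2 (limma adjusted p = 1.75e-05). Of 39 adhesion-machinery genes, which link integrins to actin, 16 were higher and 5 lower in KO1, and 7 higher and 11 lower in KO2. NEDD9, a docking protein of focal adhesions, rose by 2.29 in KO1 (limma adjusted p = 1.56e-06) and by 2.07 in KO2 (limma adjusted p = 2.69e-06).

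Of 33 other glycoproteins and proteoglycans, 8 were higher and 10 lower in KO1, and 5 higher and 13 lower in KO2. TGFBI, an integrin ligand, fell by 2.06 in KO1 (limma adjusted p = 2.82e-07) and by 2.02 in KO2 (limma adjusted p = 3.6e-07). LUM, the small proteoglycan lumican, had 14, 23 and 20 reads in the KO1 libraries and 9, 5 and 12 in the KO2 libraries, against 1 read in all control libraries together. Its read rate was 56.9 times the control's in KO1 (exact 95% interval 9.81 to 2290) and 28.0 times in KO2 (4.6 to 1150), and it reached the 1 TPM mean only through the clones, in which it is high. Of 11 other basement membrane genes, 4 were higher and 3 lower in KO1, and 3 higher and 5 lower in KO2, and PXDN, the peroxidase that crosslinks collagen IV, had 717 reads in KO1, 226 in KO2 and 38 in the control. Its read rate was 18.8 times the control's in KO1 (exact 95% interval 13.6 to 26.8) and 6.41 times in KO2 (4.53 to 9.29), with a control mean of 0.432 TPM, so it too passed the filter through the clones. Of 25 other proteases and inhibitors, 3 were higher and 11 lower in KO1, and 3 higher and 14 lower in KO2.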

How the data were processed

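The authors deposited log2 TPM values of 15258 genes in 9 input libraries. The submitters' processing notes name edgeR 3.12.1, R 3.3.3, featureCounts, HISAT2 2.0.4, deepTools 3.0.2 and SAMtools 1.7, and the hg38 build, without their roles. The annotation and strand setting of the counting were not stated there. The 9 m6A libraries were not analysed here. Whole reads were recovered from the steps between deposited values for 100% of genes (tolerance 1e-06 reads). The lowest log2 values reflect a prior count, so fold changes of genes with few reads depend on it, and genes with few reads are given by reads as well. Intervals cover counting error only.

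limma 3.58.1 (R 4.3.3) with a variance trend was fitted to all 9 libraries over 14512 genes (mean TPM of 1 or more), with two-sided p-values adjusted by Benjamini-Hochberg over all of them, and calls at 0.05. It was tested on simulated data. No library was a copy of another: chi-square per degree of freedom between replicates was 1.22 to 3.71. Symbols and coordinates are from GENCODE 44 (15138 identifiers matched, 120 did not), and start bases from RefSeq, with the most upstream GENCODE start as an alternative.

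Named genes were those with the highest and lowest changes called in both clones or between clones, the 10 most abundant, those called in opposite directions, and partner chains; others are marked as singled out. The values of some genes that were counted are not reported here. Members and lists were chosen with earlier results of these data known. Alternatives were other pseudocounts, filters and normalizations, no trend, only the lines compared, a replicate block, limma-voom on reads, subtraction of 51 neighbouring genes, and leaving out each library.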

Additional observations from a re-analysis of the deposited data

Results flagged for a closer look

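The KO2 against KO1 comparison passed the test (limma adjusted p under 0.05) for 20 of the 32 members that the naming rule above selected, which is the reason they are listed. Of all tested genes, 28.7% were called in this comparison. The naming rule took some members because they passed between the clones. The count of 20 was thus partly fixed by that choice and is no result about the members. Lower in KO2 than in KO1, by log2 difference, were MMP1 (-3.27), FN1 (-2.25), COL5A2 (-1.28), MMP3 (-1.20), COL16A1 (-0.98), FBN1 (-0.81), MMP2 (-0.81), TIMP3 (-0.54), BGN (-0.50), TIMP1 (-0.42), COL8A1 (-0.42), VCAN (-0.36), ITGA3 (-0.31), LAMC1 (-0.29), COL4A2 (-0.27), ITGB5 (-0.22) and SPARC (-0.11). Higher in KO2 among these 20 were COL6A2 (2.30), COL6A3 (1.23) and ADAMTS1 (0.93). Other members mentioned above, outside the naming rule, also passed in this comparison. Among them LAMB3 (-1.44), MMP19 (-1.14), MMP14 (-0.65), ITGA5 (-0.59) and TIMP2 (-0.26) were lower in KO2, and LAMA1 (0.265) was higher. Each line is 1 clone, so a difference between clones cannot be told apart from a difference between edits.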

How the results depend on the processing

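The number of members called was 35 in KO1, 44 in KO2, 33 between KO2 and KO1 and 43 for both clones. Of all tested genes, 34.3%, 30.4%, 28.7% and 34.4% were called in these comparisons. With a mean of at least 5 TPM required, 41 members were tested and 29 were called in KO2, 5 higher and 24 lower, with 32.4% of all genes called. Leaving out 1 library gave 30 to 37 in KO1, 41 to 46 in KO2, 28 to 32 between the clones and 38 to 47 for both clones. The replicate letters did not pair the samples, with correlations of same-letter deviations from -0.074 to 0.037. With a replicate block the counts were 34, 44, 30 and 43, and 30.1%, 26.7%, 24.2% and 30.2% of all genes were called.

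Leaving out some single library ended the call of COL4A5 (limma adjusted p up to 0.134), ADAMTS17 (0.0836), COL13A1 (0.0595), ITGA10 (0.0577), ITGB4 (0.079) and LAMA4 (0.0549) in KO1, of COL9A3 (0.119; without any control library, KO2 A or KO2 C), ITGB4 (0.102) and MMP19 (0.0727) in KO2, and of COL4A2 (0.0583; without KO1 A, KO1 C, KO2 A or KO2 C), ITGA1 (0.0611), ITGB8 (0.127), MMP16 (0.0859), MMP19 (0.0768), SPARC (0.126; without control C, KO1 B, KO1 C, KO2 B or KO2 C) and VCAN (0.13; without any library but KO1 B and KO2 B) between the clones. For both clones it ended those of ADAMTS17, ADAMTS7, COL13A1, ITGA3, ITGB4, MMP1 and TIMP2 (0.0609 to 0.112). The cause was not tested.

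With the neighbours' running median subtracted, the KO2 against KO1 calls of SPARC, VCAN, COL4A2 and ITGB8 were lost (limma adjusted p = 0.664, 0.0718, 0.0591 and 0.0596). The KO2 call of ITGB4 was lost too (limma adjusted p = 0.103). With it subtracted, LAMA1 went to 0.085 in KO1 and 0.243 for both clones, and LAMB2 to -0.044 in KO2. LAMB1 went to 0.016 between clones and TIMP1 to -0.016 for both clones. Values that had not passed also changed sign. They were ADAMTS1 in KO1 (-0.005 with median centring, -0.007 with quantile normalization, -0.027 with limma-voom), ADAMTS6 between clones (0.015 with median centring), LAMB1 between clones (0.043 with median centring, 0.023 with limma-voom) and TIMP1 for both clones (-0.002 with quantile normalization, -0.022 with limma-voom). Without 1 library, ADAMTS1 in KO1 ranged from -0.009 to 0.104, COL4A1 between clones from -0.06 to 0.079, ITGB7 between clones from -1.224 to 0.034, LAMB1 between clones from -0.042 to 0.038 and TIMP1 for both clones from -0.025 to 0.045. COL6A2, MMP1, ITGB7 and ITGB2 rest on few reads.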
